A study of Mus musculus with 12 samples.

Results

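Keratins are the intermediate filament proteins of epithelial cells. The keratin genes of the mouse lung array were taken as every gene whose symbol is Krt followed by a digit, which leaves out the keratin-associated proteins of hair. Only probe sets annotated with exactly 1 gene symbol were used, and a gene with several was represented by the probe set brightest on average across the 12 arrays. This gave 53 keratins among 22180 measured genes. Of these, 28 encode type I (acidic) and 25 type II (basic) chains. Krt18 alone had a choice of probe sets. A further 2 probe sets, one shared by Krt5 and Krt6a and one shared by Gm5478 and Krt6b, were annotated with several symbols and are no members. Krt5 therefore has no value here.

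Total RNA was measured from whole mouse lungs at E14.5, when the airways branch, in 3 genotypes with 4 arrays each. Yy1 mutants were Shh+/Cre;Yy1flox/flox, Dicer mutants were Shh+/Cre;Dicerflox/flox, and controls were Shh+/Cre, so that every specimen carried the Cre recombinase allele at Shh, a gene that is active in the lung epithelium and not in the mesenchyme around it. The floxed genes encode Yy1, a zinc finger transcription factor, and Dicer, the enzyme that cuts microRNA precursors. The labels do not say whether a specimen was 1 embryo or a pool, nor do they give litter, strain or sex, so p-values measure only the spread between these specimens. In whole-lung RNA, fewer cells of a type and less RNA per cell cannot be told apart.

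A keratin filament is built from pairs of 1 type I and 1 type II chain, and a chain without its partner is degraded. Simple epithelia, among them the lung lining, use Krt8 and Krt7 as type II chains with Krt18 and Krt19 as type I chains. Basal and stratified epithelia use other pairs, such as Krt5 with Krt14, and the hair follicle has keratins of its own. The filaments are anchored at desmosomes between cells and at hemidesmosomes on the basement membrane. In the mouse genome the keratin genes lie in a type I and a type II cluster, and Krt18, a type I gene, lies beside its partner Krt8 at one end of the type II cluster. RefSeq placed 27 of the 53 keratins on chromosome 11 and 26 on chromosome 15, with Krt8 and Krt18 as direct neighbours on chromosome 15, Krt7 beside Krt80 there, and Krt19 beside Krt15 on chromosome 11.

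The upstream sequences of Krt7, Krt8 and Krt18 are shown because these simple keratins lie in one cluster, and Krt7 and Krt18 were called in opposite directions between the mutants while Krt8 was not called. Each is the 250 bases before the gene's start in RefSeq (GRCm38.p6), 5′ to 3′ on the gene's own strand. They are chr15:101412153-101412402 on the plus strand for Krt7, chr15:102004343-102004592 on the minus strand for Krt8 and chr15:102027966-102028215 on the plus strand for Krt18. Capitals mark matches to GGGCGG, the GC box bound by Sp1, or to ATGGC, the core of the Yy1 motif, on either strand.
Krt7: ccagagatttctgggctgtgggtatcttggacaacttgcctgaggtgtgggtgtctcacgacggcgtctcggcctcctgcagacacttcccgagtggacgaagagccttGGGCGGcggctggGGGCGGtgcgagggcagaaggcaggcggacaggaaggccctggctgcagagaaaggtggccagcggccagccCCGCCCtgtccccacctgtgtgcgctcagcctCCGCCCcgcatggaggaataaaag
Krt8: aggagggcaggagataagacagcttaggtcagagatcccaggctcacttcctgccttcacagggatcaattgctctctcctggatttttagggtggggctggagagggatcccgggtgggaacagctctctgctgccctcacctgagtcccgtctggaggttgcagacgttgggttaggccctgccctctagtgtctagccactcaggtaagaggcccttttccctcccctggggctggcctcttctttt
Krt18: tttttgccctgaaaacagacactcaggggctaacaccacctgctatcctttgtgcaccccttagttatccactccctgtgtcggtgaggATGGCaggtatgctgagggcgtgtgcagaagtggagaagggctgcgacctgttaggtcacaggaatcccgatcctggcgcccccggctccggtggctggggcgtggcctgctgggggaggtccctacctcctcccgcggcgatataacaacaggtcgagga
Krt7 held 4 GC boxes, 2 on the gene's strand at 141 to 136 and 128 to 123 bases upstream and 2 on the opposite strand at 56 to 51 and 24 to 19 bases upstream. Krt18 held 1 Yy1 core, 161 to 157 bases upstream, and the Krt8 window held no match to any of the 5 motifs searched. Their GC content was 66.0% for Krt7, 58.0% for Krt8 and 60.4% for Krt18. RefSeq windows were given for 36 of the keratins, and Krt19, Krt4 and Krt15 are named only. The GC box was found in 2 of these 36 genes, Krt7 and Krt75, against 32.7% of all 32851 windows of the same length. The Yy1 core was found in 15 of 36, against 32.9% of windows. The longer Yy1 consensus AANATGGC, which contains the core, was found in 3 (Krt72, Krt75 and Krt76), against 3.91% of windows. TATAAA was found in 17 of 36, against 12.4% of windows, and the AP-1 motif TGANTCA in 1 (Krt13), against 6.75%. A match describes letters and not a bound site.

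The 12 array medians lay between 5.99 and 6.08 on the log2 scale, and array pairs correlated at 0.978 to 0.991 across probe sets. On 3 mutant arrays the Y-linked gene Eif2s3y was raised, at 7.99 in Yy1 mutant 2, 5.92 in Yy1 mutant 3 and 7.84 in Dicer mutant 4, against 3.73 to 4.48 in controls. The lung epithelial factor Nkx2-1 was present in every genotype, with means of 8.36 in Yy1 mutants, 8.85 in Dicer mutants and 9.29 in controls. Sensory receptors of the nose gave a measure of background. The 1105 olfactory receptor genes on the array had means of 1.68 to 7.91, and their 95th percentile, 5.88, was taken as the background limit. Of all genes, 61.3% lay above it.

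Of the 53 keratins, 22 had a mean above the background limit and 31 below it. The simple keratins stood out from the background most, with 5 of 7 above the limit. Krt18 averaged 8.41 over the 12 arrays, Krt8 8.03, Krt7 7.52 and Krt19 7.28. These 4 also exceeded the 99th percentile of the olfactory receptor genes, 6.86, which only 1 other keratin, the hair shaft keratin Krt81 (7.11), did. Krt80, a type II chain of simple and layered epithelia, lay nearer the limit at 6.15. Krt23, a type I chain of glandular epithelia, and Krt20, a type I chain of gut and urothelium, lay under it at 5.54 and 4.94. Probe sets differ in how brightly they bind, so these values set each keratin against the background and do not rank the amounts of the keratins.

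Keratins of other epithelia lay mostly near or under the limit. Of 19 measured basal and stratified keratins, 5 lay above it, with means of 6.03 to 6.55 (Krt10, Krt42, Krt12, Krt78 and Krt79). Krt14, Krt15, Krt17, Krt4, Krt13, Krt16, Krt6a and Krt6b, which mark basal, internal stratified or activated epidermal cells, were all below it. Of 9 keratins of the inner root sheath and companion layer of the hair, Krt73 and Krt71 lay above the limit, and of 15 hair shaft keratins 8 did (Krt81, Krt35, Krt34, Krt32, Krt40, Krt33a, Krt39 and Krt82). Of 3 keratins in no class, Krt88 and Krt90 lay above it and Krt222 below. The members just inside the limit were Krt71 and Krt90, both at 5.90, and those just outside were Krt33b at 5.87 and Krt36 at 5.86. With the 90th percentile of the olfactory receptor genes (5.41) as the limit 31 keratins lay above it, with the 99th (6.86) 5 did, and with the 50th percentile of all genes 7 did, so the side on which a keratin between 5.41 and 6.86 fell depended on the limit.

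**Figure D1:**
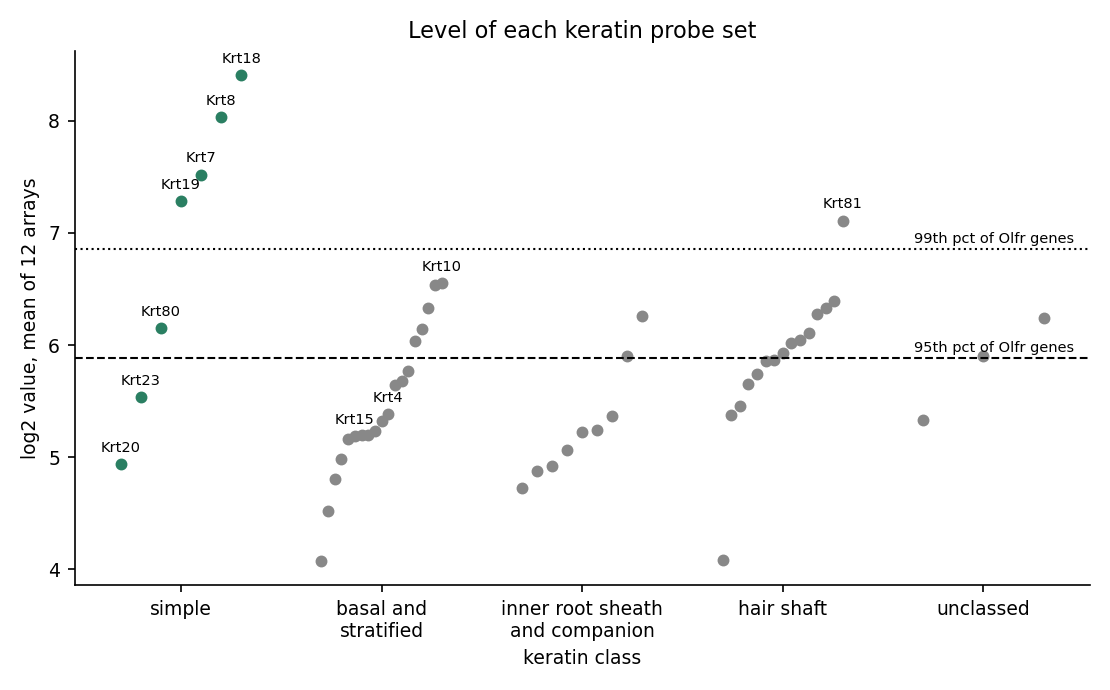
Level of each keratin probe set as the mean log2 value over the 12 arrays (vertical axis), grouped by keratin class, with green points for simple keratins and grey points for the others. The dashed line is the 95th percentile of olfactory receptor genes (5.88) and the dotted line the 99th (6.86). Krt18, Krt8, Krt7, Krt19 and the hair keratin Krt81 are the points above the dotted line.

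The probe sets of keratins with similar sequences can bind each other's transcripts. This concerns the hair keratins Krt81, Krt83, Krt86 and Krt87, the epidermal Krt6a, Krt6b and Krt5, and the type I group Krt14, Krt16, Krt17 and Krt42, and it was not tested. Genes that tell the sources of keratins apart were measured as well. Trp63, the master factor of basal cells, averaged 5.49 in Yy1 mutants, 5.65 in Dicer mutants and 5.72 in controls, all under the background limit. Dsg3, the desmoglein of stratified epithelium, averaged 4.35 in Yy1 mutants, 4.25 in Dicer mutants and 4.30 in controls. Foxn1, the factor of thymic epithelium, averaged 5.80 in Yy1 mutants, 5.61 in Dicer mutants and 5.71 in controls, also under the limit. Of 12 markers of stratified epithelium other than keratins, 6 lay above the limit, and of 5 thymic markers 1 did.

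The comparison of Yy1 mutants with controls shows what accompanied floxed Yy1 alleles in the epithelium. Krt7 and Krt19 fell, no keratin rose, and Krt18, the brightest keratin probe set, was at nearly the same level in both genotypes. The 2 keratins that fell were 3.77% of the 53 members, while 6.61% of all genes were called in this comparison, 2.77% higher and 3.84% lower. Both were simple keratins, 2 of 7. The median difference of Yy1 mutants from controls was -0.03 over the 53 keratins and 0.0016 over all genes. A gene was called at an adjusted p under 0.05 with limma, a linear model with moderated variances fitted to all 22180 genes, with the Benjamini-Hochberg adjustment.

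Krt7, a type II chain of simple and glandular epithelium, read 7.10, 6.89, 7.29 and 6.96 in Yy1 mutants, 7.54, 7.49, 7.59 and 7.51 in Dicer mutants and 8.15, 7.93, 7.85 and 7.92 in controls. The 3 genotypes formed 3 separate bands, with the Yy1 mutants lowest and the Dicer mutants between them and the controls. Means were 7.06 ± 0.175 in Yy1 mutants, 7.53 ± 0.0450 in Dicer mutants and 7.96 ± 0.128 in controls (SD, n = 4 each). Krt7 fell 1.86-fold in Yy1 mutants (log2 difference -0.90, SE 0.0898, adjusted p = 4.56e-05 by limma). It fell 1.34-fold in Dicer mutants (log2 difference -0.43, adjusted p = 0.00906 by limma). Krt7 kept both calls in every alternative tried, with adjusted p of at most 0.00121 for the Yy1 mutants and 0.0306 for the Dicer mutants.

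Krt19, the smallest keratin and a type I chain of simple and ductal epithelium, read 7.19, 7.35, 7.31 and 6.77 in Yy1 mutants, 6.92, 6.80, 7.22 and 6.93 in Dicer mutants and 7.61, 7.92, 7.84 and 7.53 in controls. Every mutant array lay below every control array, and the mutants overlapped each other. Means were 7.15 ± 0.267 in Yy1 mutants, 6.97 ± 0.179 in Dicer mutants and 7.73 ± 0.186 in controls (SD, n = 4 each). Krt19 fell 1.49-fold in Yy1 mutants (log2 difference -0.57, SE 0.134, adjusted p = 0.0200 by limma), a call that was lost without control 2 (adjusted p = 0.0569) or without control 3 (0.0594). In Dicer mutants it fell 1.69-fold (log2 difference -0.76, adjusted p = 0.00298 by limma), and this call held in every alternative.

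Krt8 and Krt18, the first keratin pair of the embryo and obligate partners in simple epithelium, differed from controls by less. Krt8 read 8.02, 7.96, 7.93 and 7.92 in Yy1 mutants, 7.92, 7.98, 7.90 and 7.95 in Dicer mutants and 8.18, 8.35, 8.13 and 8.09 in controls. All 8 mutant arrays lay below all 4 controls, by a small margin. Krt8 differed by -0.23 (SE 0.0663) in Yy1 mutants, which did not pass the test (adjusted p = 0.0602 by limma), though it passed after quantile normalisation (0.0247), without the dimmest genes (0.0308), with an intensity trend (0.0334) and without control 4 (0.0466). In Dicer mutants it fell by 0.24 (adjusted p = 0.0353 by limma). This call was lost without any 1 of the Dicer mutants (0.0611 to 0.0951), without control 1 (0.0693), control 2 (0.0722), control 3 (0.0525) or Yy1 mutant 3 (0.0513), with array medians made equal (0.0746), in a fit of only the genotypes compared (0.0789) and without the 3 arrays with raised Eif2s3y (0.131).

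Krt18 read 8.58, 8.55, 8.46 and 8.41 in Yy1 mutants, 8.21, 8.08, 8.36 and 8.09 in Dicer mutants and 8.55, 8.56, 8.58 and 8.43 in controls. The Yy1 mutants overlapped the controls, and the Dicer mutants lay below both. Means were 8.50 ± 0.0791 in Yy1 mutants, 8.19 ± 0.133 in Dicer mutants and 8.53 ± 0.0668 in controls (SD, n = 4 each). The difference in Yy1 mutants was -0.03 (SE 0.0757, adjusted p = 0.888 by limma). In Dicer mutants Krt18 fell 1.27-fold (log2 difference -0.35, adjusted p = 0.0116 by limma). This call held with any 1 array left out, Dicer mutant 4 among them (at most 0.0455). It was lost only without all 3 arrays with raised Eif2s3y (0.0821), of which the others are Yy1 mutants. The dimmer probe set of Krt18 had means of 6.25 in Yy1 mutants, 5.94 in Dicer mutants and 6.21 in controls. Its differences from control, 0.04 and -0.27, were not called in a separate fit of all 41345 probe sets (adjusted p = 0.937 and 0.294 by limma).

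The remaining simple keratins were not called against controls. Krt80 read 6.41, 6.35, 6.33 and 6.18 in Yy1 mutants, 6.49, 5.62, 5.93 and 5.96 in Dicer mutants and 6.23, 5.96, 6.07 and 6.28 in controls, with the widest spread among the Dicer mutants. Krt23 averaged 5.39 in Yy1 mutants, 5.78 in Dicer mutants and 5.43 in controls. It read 5.83, 5.93 and 6.03 in 3 Dicer mutants and 5.33 in Dicer mutant 3, without which its difference from control passed the test (adjusted p = 0.0118). Krt20 averaged 5.03 in Yy1 mutants, 4.81 in Dicer mutants and 4.97 in controls. The lowest adjusted p of these 3 against controls was 0.145, for Krt23 in Dicer mutants.

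The comparison of Dicer mutants with controls shows what accompanied floxed Dicer alleles. Krt7, Krt8, Krt18, Krt19, Krt4 and Krt15 fell and no keratin rose. These 6 were 11.3% of the 53 members, while 8.75% of all genes were called in this comparison, 4.78% higher and 3.97% lower. By class, 4 of 7 simple keratins fell, 2 of 19 basal and stratified keratins, 0 of 9 of the inner root sheath and 0 of 15 of the hair shaft. Both mutants were set against the same 4 controls, so their differences are not independent of each other. Without the 3 arrays with raised Eif2s3y, 2 keratins were called in Dicer mutants, Krt7 and Krt19, and 976 genes in all against 1940 with every array. Of these arrays only Dicer mutant 4 belongs to this comparison, and the others are Yy1 mutants that enter the shared estimate of spread. Without Dicer mutant 4 alone, 4 keratins (Krt18, Krt7, Krt19 and Krt14) and 1275 genes were called.

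**Figure D2:**
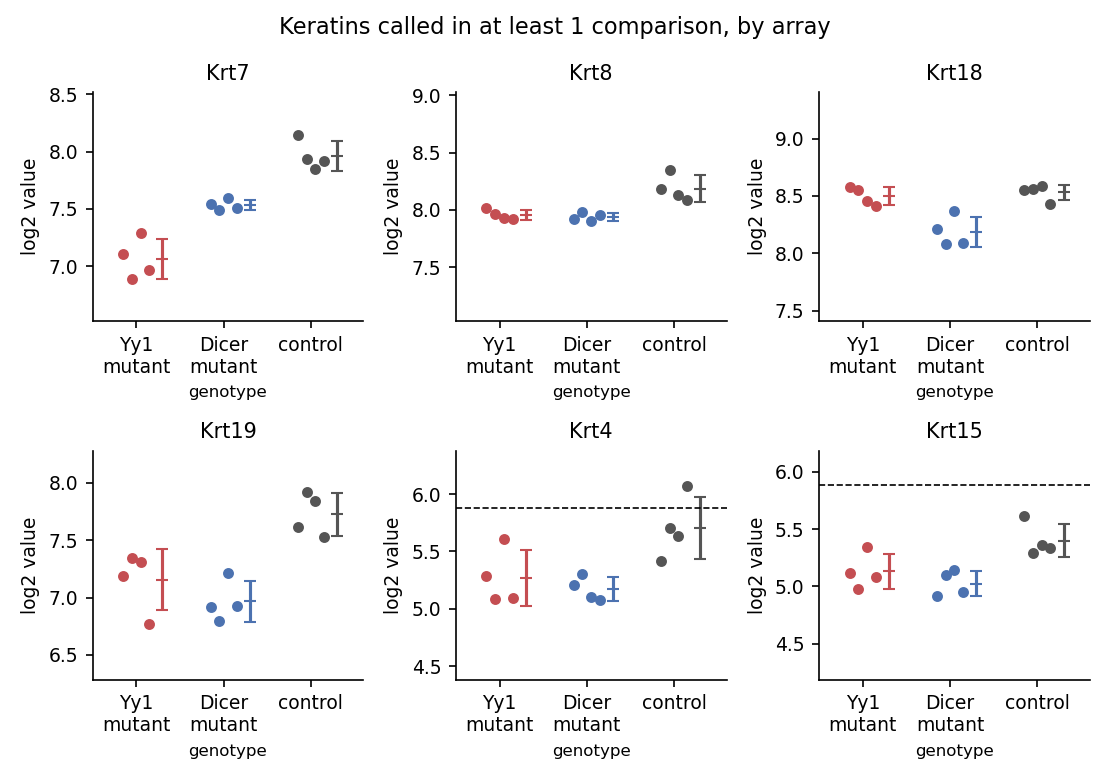
Log2 value of the 6 keratins called in at least 1 comparison on each array (vertical axis, scale shifted between panels), by genotype, with the mean and SD of 4 arrays beside the points. The dashed line in the Krt4 and Krt15 panels is the background limit, 5.88. Krt7 forms 3 separate bands, Krt19 is lower in both mutants than in controls, and Krt18 is lower in Dicer mutants than in the other genotypes.

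Krt4, a type II chain of internal stratified epithelium such as the oesophagus, read 5.28, 5.08, 5.61 and 5.09 in Yy1 mutants, 5.21, 5.30, 5.10 and 5.07 in Dicer mutants and 5.41, 5.70, 5.63 and 6.07 in controls. The Dicer mutants lay below all controls and the Yy1 mutants overlapped them. Only 1 array, control 4, was above the background limit. Krt4 fell by 0.53 in Dicer mutants (adjusted p = 0.0269 by limma), a call lost without control 4 (0.0656), without Dicer mutant 3 (0.0706), without Dicer mutant 4 (0.0783) and without the 3 arrays with raised Eif2s3y (0.0721). In Yy1 mutants its difference of -0.44 (adjusted p = 0.0802) did not pass, but it did without Yy1 mutant 3 (0.0281) or control 1 (0.0422), after quantile normalisation (0.0395) and with equal medians (0.0398).

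Krt15, a type I chain of basal cells and the direct neighbour of Krt19, read 5.12, 4.98, 5.35 and 5.08 in Yy1 mutants, 4.91, 5.10, 5.14 and 4.95 in Dicer mutants and 5.61, 5.29, 5.36 and 5.34 in controls. All 12 values were below the background limit, and the Dicer mutants lay below every control. Krt15 fell by 0.38 in Dicer mutants (adjusted p = 0.0242 by limma), a call lost without control 1 (0.0704), Dicer mutant 1 (0.0613), Dicer mutant 4 (0.0759) or the 3 arrays with raised Eif2s3y (0.0732). In Yy1 mutants it differed by -0.27 (adjusted p = 0.122).

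The other keratins of basal cells were not called. Krt14, the partner of Krt5 in basal cells, averaged 5.24 in Yy1 mutants, 5.05 in Dicer mutants and 5.41 in controls, with differences from control of -0.17 (adjusted p = 0.450) and -0.35 (adjusted p = 0.0639). Without Dicer mutant 4, whose Krt14 value of 5.33 was the highest of its group, the Dicer difference passed (0.0227). Krt17, induced in activated epidermis, averaged 4.89 in Yy1 mutants, 4.84 in Dicer mutants and 5.22 in controls (adjusted p = 0.260 and 0.162). The markers of stratified epithelium other than keratins averaged 5.59 to 5.75 over the Yy1 mutant arrays, 5.57 to 5.67 over the Dicer mutant arrays and 5.68 to 5.82 over the control arrays, and 1 of 12, Bcl11b, a zinc finger factor of skin and T cells, fell in each mutant. Its call in Yy1 mutants was lost in 9 of the 12 fits with 1 array left out. The share of all genes that fell was 3.84% in Yy1 mutants and 3.97% in Dicer mutants. Of 5 thymic markers, 1 rose in Yy1 mutants, where 2.77% of all genes rose, and 0 were called in Dicer mutants. It was Ccl25, which rose by 0.29 (adjusted p = 0.0148 by limma). The part of these markers in the fall of Krt4 and Krt15 was not tested.

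Keratins outside the simple class that lay above the limit gave no call in any comparison. These 17 differed from control by -0.24 to 0.14 in Yy1 mutants, with a median of -0.04, and by -0.31 to -0.03 in Dicer mutants, with a median of -0.14. The widest gap was that of the hair keratin Krt33a in Dicer mutants, at 5.84 against 6.14 in controls (adjusted p = 0.0641). It passed after quantile normalisation (0.0325), with equal medians (0.0434), without the dimmest genes (0.0354), with array weights (0.00959), without control 1 (0.0221) and without control 2 (0.0416). Krt81, the brightest hair keratin, averaged 7.07 in Yy1 mutants, 7.05 in Dicer mutants and 7.19 in controls. Small negative differences were common in Dicer mutants: 45 of 53 keratins lay on the negative side, with a median of -0.13, against 57.2% of all genes, whose median was -0.03. Among the 46 keratins outside the simple class the number was 39, with a median of -0.12. In many of those above the limit, Dicer mutant 2 was the lowest of the 12 arrays. It read 6.19 in Krt42, 6.04 in Krt35, 5.82 in Krt12, 5.42 in Krt71 and 5.46 in Krt90. In Krt81, Krt10, Krt34, Krt32, Krt73, Krt40 and Krt79 another array was lowest. How far Dicer mutant 2 carried the negative differences was not tested. In Yy1 mutants 31 of 53 keratins were on the negative side, against 49.5% of all genes. The 31 keratins under the background limit had medians of -0.01 in Yy1 mutants and -0.09 in Dicer mutants, and all genes under the limit had medians of 0.01 and -0.04.

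**Figure D3:**
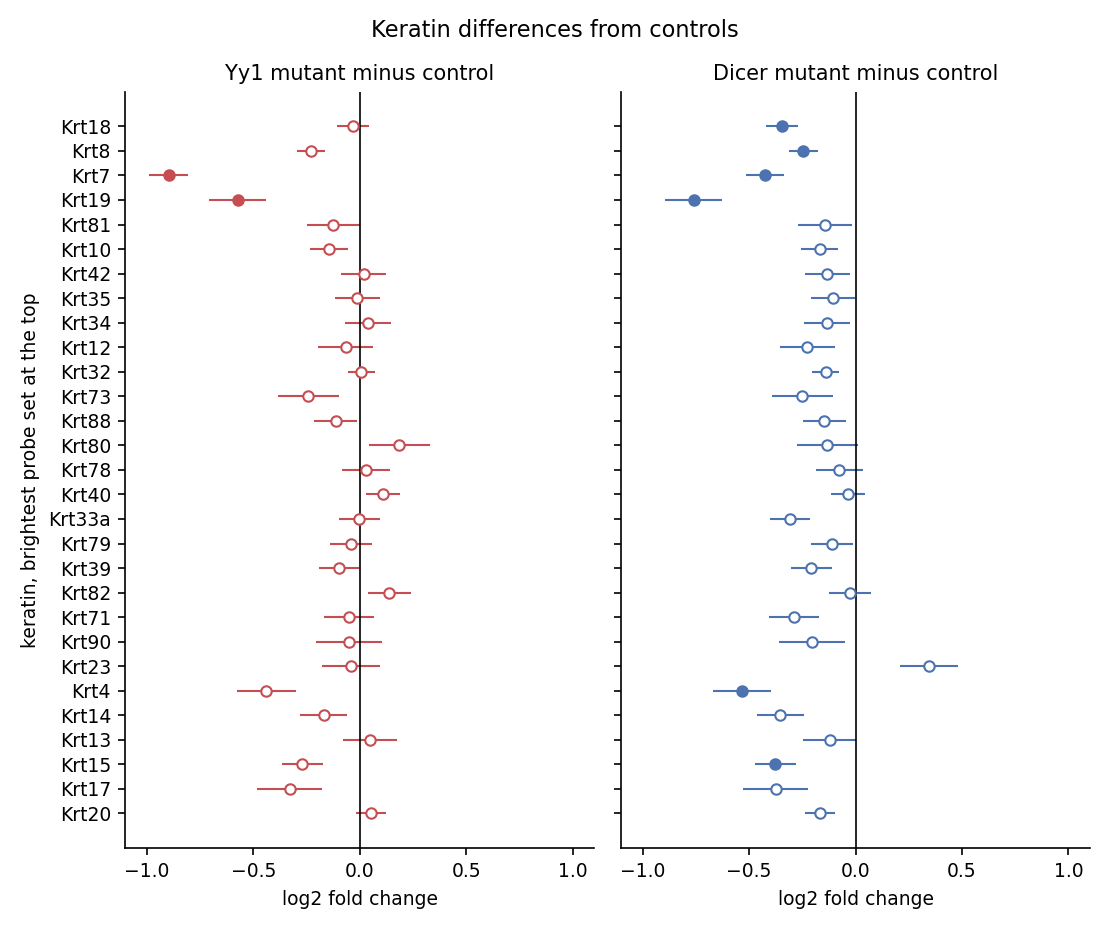
Log2 fold change from control of the keratins above the background limit and of 7 below it, Yy1 mutant minus control on the left and Dicer mutant minus control on the right, ordered by mean level with the brightest at the top. Bars are SE and filled circles passed the test. The filled points are Krt7 and Krt19 on the left, and Krt18, Krt8, Krt7, Krt19, Krt4 and Krt15 on the right.

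Set directly against each other, the mutants differed in 2 keratins. Krt7 was lower in Yy1 mutants than in Dicer mutants, 1.39-fold (log2 difference -0.47, adjusted p = 0.00686 by limma, at most 0.0374 in every alternative). Krt18 was higher in Yy1 mutants than in Dicer mutants, 1.24-fold (log2 difference 0.31, adjusted p = 0.0297 by limma), with no overlap of the arrays. Its dimmer probe set differed by 0.30, with overlap, and was not called in the separate fit of all probe sets (adjusted p = 0.304 by limma). Of all genes, 4.96% were called in this comparison. The Krt18 call was lost without Yy1 mutant 1 (0.0896), Yy1 mutant 2 (0.0661), Yy1 mutant 3 (0.0582), Dicer mutant 1 (0.0540), Dicer mutant 2 (0.0905) or Dicer mutant 4 (0.0978), after equalising medians (0.0772), in a fit of only these genotypes (0.0548) and without the 3 arrays with raised Eif2s3y (0.296). Krt19 and Krt8 differed by 0.19 and 0.02 between the mutants (adjusted p = 0.512 and 0.922). Krt80 differed by 0.32 and Krt23 by -0.39 (adjusted p = 0.262 and 0.138), and each passed without 1 array, Krt80 without Dicer mutant 1 (0.0208) and Krt23 without Dicer mutant 3 (0.0108). Krt28, a keratin of the inner root sheath, also passed without Dicer mutant 1, Krt33a with array weights and in a fit of only these genotypes, and Krt20 with array weights (0.0343).

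Because Krt8 and Krt18 pair one to one, their log2 values were subtracted within each array. Krt8 minus Krt18 averaged -0.54 ± 0.0428 in Yy1 mutants, -0.25 ± 0.167 in Dicer mutants and -0.35 ± 0.0999 in controls (SD, n = 4 each). In Yy1 mutants it lay below both other genotypes on every array. The difference was -0.20 from controls and -0.30 from Dicer mutants, each with p = 0.0286 in an exact two-sided permutation test, the smallest that 4 against 4 arrays allow, and 0.0429 adjusted over the 3 comparisons. Dicer mutants and controls differed by 0.10 (exact permutation p = 0.371). With 1 Yy1 mutant or control left out, the Yy1 difference from control ran from -0.23 to -0.15 and could not pass, since the smallest possible p is then 0.0571. The values show that the 2 probe sets differed unequally between genotypes and say nothing of the amounts of the partners.

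Other epithelial transcripts were lower in both mutants as well. Of 24 measured epithelial markers, a list that holds no keratin, 0 rose and 17 fell in Yy1 mutants, and 2 rose and 11 fell in Dicer mutants, with median differences of -0.50 and -0.31. Over all genes, 2.77% rose and 3.84% fell in Yy1 mutants, and 4.78% rose and 3.97% fell in Dicer mutants. The mean of the 24 markers was 7.58 ± 0.137 in Yy1 mutants, 7.87 ± 0.0965 in Dicer mutants and 8.11 ± 0.0921 in controls (SD, n = 4 each), with ranges that did not overlap. Markers of other cells differed as well. Of 7 smooth muscle markers 6 fell in each mutant, with a mean level of 7.85 to 8.38 over the Yy1 mutant arrays, 7.86 to 8.52 over the Dicer mutant arrays and 9.36 to 9.56 over the control arrays. Of 5 leukocyte markers, 4 rose in Yy1 mutants and 5 in Dicer mutants, with a mean level of 7.94 to 8.14 over the Yy1 mutant arrays, 8.12 to 8.40 over the Dicer mutant arrays and 7.50 to 7.59 over the control arrays. Of 5 endothelial markers, 0 were called in Yy1 mutants and 5 rose in Dicer mutants, with a mean level of 9.94 to 10.22 over the Yy1 mutant arrays, 10.35 to 10.49 over the Dicer mutant arrays and 9.88 to 10.16 over the control arrays. The part of these cell types in the keratin differences was not tested. Each keratin above the limit in the simple class was set against this mean on the same array, which gave 15 comparisons. Of these, 8 reached exact permutation p = 0.0286, the smallest possible, and 0 passed after adjustment over the 15 (lowest adjusted p = 0.0536). After quantile normalisation 9 passed, and with Epcam and Cdh1 as the only markers 10 did. None of 15 can pass unless at least 9 reach the smallest possible p. The step from 0 to 9 after quantile normalisation is therefore 1 more comparison at that p. The following differences are given as values.

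Relative to the markers, Krt18 was 0.49 higher in Yy1 mutants than in controls, Krt8 0.30 higher and Krt80, near the background limit, 0.71 higher, each with exact permutation p = 0.0286 and no overlap. Krt7 lay -0.37 from controls (exact permutation p = 0.0286), so its difference was larger than that of the marker mean. With Epcam and Cdh1 as the only markers this Krt7 difference was -0.23 and was not among those that passed. Krt19 lay -0.05 from controls (exact permutation p = 0.686). In Dicer mutants Krt19 lay -0.53 from controls relative to the markers (exact permutation p = 0.0286), with no overlap. Krt7 lay -0.19, Krt18 -0.11, Krt8 -0.01 and Krt80 0.10 from controls in Dicer mutants, with exact permutation p of 0.0571 to 0.971. Between the mutants, Krt18, Krt19 and Krt80 were higher relative to the markers in Yy1 mutants by 0.60, 0.48 and 0.61 (exact permutation p = 0.0286 each).

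**Figure D4:**
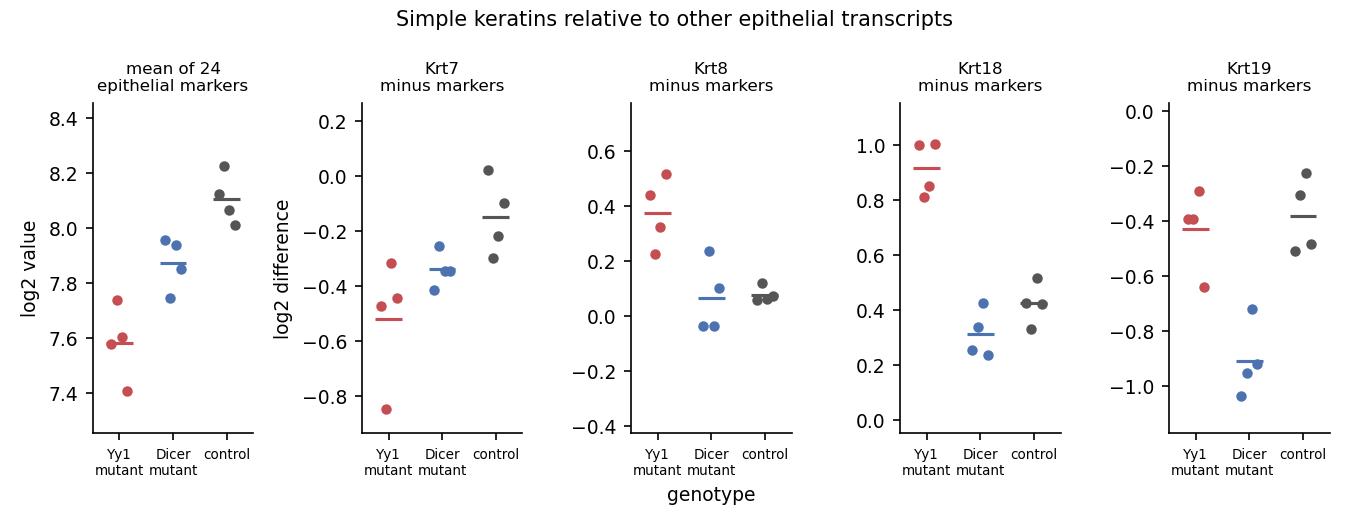
Mean log2 value of 24 epithelial markers on each array (first panel) and the log2 difference of Krt7, Krt8, Krt18 and Krt19 from that mean on the same array (other panels), by genotype, with a line at the mean of 4 arrays. Krt18 and Krt8 are highest relative to the markers in Yy1 mutants, Krt7 is lower in both mutants than in most controls with overlap between the mutants, and Krt19 is lowest in Dicer mutants.

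Mesothelium, the lining of the lung surface, also makes simple keratins. Of its 9 markers, 1 rose and 0 fell in Yy1 mutants, and 4 rose and 0 fell in Dicer mutants. The shares over all genes were 2.77% higher and 3.84% lower in Yy1 mutants, and 4.78% higher and 3.97% lower in Dicer mutants. The marker that rose in Yy1 mutants was Lrrn4, a leucine-rich repeat protein (adjusted p = 0.0174 by limma). That call was lost without control 4, Yy1 mutant 2 or Yy1 mutant 3 (each at most 0.0507) or the 3 arrays with raised Eif2s3y (0.217). Its call in Dicer mutants (0.0132) was lost without those 3 arrays (0.0707) but held with any 1 array left out (at most 0.0445). The mesothelial markers' mean level was 7.24 to 7.35 over the Yy1 mutant arrays, 7.31 to 7.55 over the Dicer mutant arrays and 7.05 to 7.23 over the control arrays. Upk3b, a uroplakin of mesothelium, averaged 9.16 in Yy1 mutants, 9.58 in Dicer mutants and 9.16 in controls, and it rose in Dicer mutants (adjusted p = 0.00307 by limma). The cell surface mucin Muc16 averaged 5.48 in Yy1 mutants, 5.89 in Dicer mutants and 5.27 in controls and rose in Dicer mutants (adjusted p = 0.00198 by limma). Its mean over all arrays, 5.55, was under the background limit. The marker Msln, also under it at 5.56, differed by -0.22 in Dicer mutants and was not called (adjusted p = 0.0922 by limma). Of the proximal airway markers, 5 of 7 fell in each mutant, with median differences of -1.23 in Yy1 mutants and -1.55 in Dicer mutants. The part of mesothelium and of airway cells in the keratin differences was not tested.

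Some genes of the proteins that hold keratin filaments at the cell border also fell. Of 20 measured genes of desmosomes and filament attachment, 0 rose and 3 fell in Yy1 mutants, and 0 rose and 5 fell in Dicer mutants, with medians of -0.07 and -0.10. Of all genes, 3.84% fell in Yy1 mutants and 3.97% in Dicer mutants. Dsp, the desmoplakin that ties keratin to the desmosome, averaged 7.82 ± 0.280 in Yy1 mutants, 7.74 ± 0.172 in Dicer mutants and 8.68 ± 0.179 in controls (SD, n = 4 each). It fell by 0.86 in Yy1 mutants (adjusted p = 0.00155 by limma) and by 0.94 in Dicer mutants (adjusted p = 0.000713 by limma). Dsg2, the desmoglein of simple epithelium, fell by 0.71 in Yy1 mutants (adjusted p = 9.37e-05 by limma), and by 0.33 as the mean of its probe sets (0.00851). The plakin Ppl, or periplakin, fell by 0.57 in Dicer mutants, where Pof1b, an actin-binding protein of the junctions, fell by 0.49 at a level below the background limit (adjusted p = 0.00227 and 0.0154 by limma). The other calls were Pkp4 in both mutants and Pkp3 in Dicer mutants, both plakophilin family genes, and that of Pkp3 was lost in 10 of the 12 fits with 1 array left out. The Pkp4 call in Dicer mutants was lost without the 3 arrays with raised Eif2s3y (adjusted p = 0.0792) but held with any 1 array left out (at most 0.0429).

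Among genes of the hemidesmosome, Lama3 was called in opposite directions in the mutants. Of 6 measured, 0 rose and 2 fell in Yy1 mutants, and 2 rose and 1 fell in Dicer mutants. The shares over all genes were 2.77% higher and 3.84% lower in Yy1 mutants, and 4.78% higher and 3.97% lower in Dicer mutants. Lama3, the laminin chain under the hemidesmosome, averaged 7.99 ± 0.101 in Yy1 mutants, 9.73 ± 0.206 in Dicer mutants and 9.03 ± 0.0896 in controls (SD, n = 4 each). It fell by 1.04 in Yy1 mutants (adjusted p = 2.73e-05 by limma) and rose by 0.70 in Dicer mutants (adjusted p = 0.000553 by limma). Yy1 mutants differed from Dicer mutants by -1.74 in Lama3 (adjusted p = 3.44e-07 by limma). Its partner Lamb3 fell by 0.97 in Yy1 mutants and by 0.59 in Dicer mutants (adjusted p = 0.000138 and 0.00499 by limma). The integrin chain Itga6 rose by 0.32 in Dicer mutants. This call was lost without the 3 arrays with raised Eif2s3y (adjusted p = 0.0567) but held with any 1 array left out (at most 0.0476).

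Of 17 measured genes of intermediate filaments other than keratins, 0 rose and 2 fell in each mutant, where 3.84% of all genes fell in Yy1 mutants and 3.97% in Dicer mutants. They were the nuclear lamins Lmnb1 and Lmnb2 in Yy1 mutants, and Lmnb2 and the neurofilament gene Nefm in Dicer mutants. Each of these calls was lost in 6 to 9 of the 12 fits with 1 array left out. Vim, the vimentin of mesenchymal cells, averaged 12.20 in Yy1 mutants, 12.27 in Dicer mutants and 12.10 in controls (adjusted p = 0.414 and 0.0910 by limma). Of the 51 keratin-associated proteins of hair, 9 lay above the background limit, and 0 were called in Yy1 mutants and 1 in Dicer mutants. This was Krtap17-1, which fell by 0.32. Its call was lost without the 3 arrays with raised Eif2s3y (adjusted p = 0.0583) but held with any 1 array left out (at most 0.0462).

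Transcription factors that act on keratin genes in epithelia were lower in part. Of 14 measured, 0 rose and 5 fell in Yy1 mutants and 0 rose and 6 fell in Dicer mutants. Over all genes, 3.84% fell in Yy1 mutants and 3.97% in Dicer mutants. The lists of factors and of epithelial markers share Elf3, Elf5, Ehf and Grhl2. Of these, Elf5, Grhl2 and Elf3 fell in Yy1 mutants and Ehf, Elf3 and Elf5 in Dicer mutants, so these falls are counted in both lists. The grainyhead factor Grhl1, which controls desmosomal cadherins in mouse epidermis, averaged 5.07 in Yy1 mutants, 5.04 in Dicer mutants and 5.58 in controls, all under the background limit, and fell in both (adjusted p = 0.00393 and 0.00225 by limma). Elf3, an epithelial ETS factor that is also one of the epithelial markers, averaged 5.86 in Yy1 mutants, 5.69 in Dicer mutants and 6.51 in controls and fell in both (adjusted p = 0.00464 and 0.000847 by limma). Klf5, a Krüppel-like factor of lung epithelium, fell by 0.69 in Yy1 mutants and by 0.86 in Dicer mutants, and the first of these calls was lost without the 3 arrays with raised Eif2s3y (adjusted p = 0.0648). Whether any of these factors acts on the keratins in these lungs was not measured.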

How the data were processed

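The deposited values are log2 signals of single-channel Affymetrix arrays hybridised with biotin-labelled RNA, and, judged from their near-equal array medians, already normalised by the authors. Base 2 is inferred from their range of 1.10 to 13.6, and how probes were summarised and normalised is not given in the sources used here. Of 41345 probe sets, 25335 were listed in the platform annotation, 23521 with 1 symbol and 1814 with several. All 53 keratins matched RefSeq by Entrez identifier with 0 symbols changed.

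A single model of all 22180 genes and 12 arrays was fitted with limma 3.58.1 (R 4.3.3) and had 9 residual degrees of freedom. Only the dimmer probe set of Krt18 was read from a separate limma fit of all 41345 probe sets, with adjustment over these. Calls were made at a Benjamini-Hochberg adjusted p under 0.05, two-sided. The fit was tested on simulated data. Single values were tested by exact permutation (scipy 1.17.1, Python 3.11.15). Precision is limited by having 4 arrays per genotype.

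The members, classes and lists were chosen with earlier results of these data known. Named were the simple keratins, the main basal keratins, every other keratin above the limit or called, those next to the limit, and up to 6 called members per other list. Replicate numbers were not used as pairs in the main fit. Alternatives were quantile normalisation, array medians made equal, leaving out the 30% dimmest genes, averaging a gene's probe sets, an intensity trend with a robust prior, array weights, a fit of only the genotypes compared, a replicate block, other background limits, Epcam and Cdh1 as the only markers, each array left out, and removal of the 3 arrays with raised Eif2s3y. Setting Krt4 and Krt15 against the markers was tried after seeing the data and is not reported, since both lay near background.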

Additional observations from a re-analysis of the deposited data

Results flagged for a closer look

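In 3 keratins 1 array stood far from the other 3 of its genotype. Krt10 read 6.45 in control 2, and the other controls read 6.70 to 6.74. Krt71 read 5.94 in control 2, close to the background limit, where the other controls read 6.03. Krt23 read 5.28 in Yy1 mutant 4, and the other Yy1 mutants read 5.42 to 5.45. These were 3 of 93 groups examined, 3.23%, and chance marks about 1 in 20 groups. None of the 3 keratins was called in any comparison.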

How the results depend on the processing

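With each array left out, keratins called numbered 1 to 3 in Yy1 mutants (1 without control 2 or control 3), 4 to 6 in Dicer mutants and 1 to 3 between the mutants. All genes called numbered 1020 to 1455, 1275 to 1991 and 726 to 1180, with 1275 reached without Dicer mutant 4. Without the 3 arrays with raised Eif2s3y, 606, 976 and 435 genes were called, against 1465, 1940 and 1101 with all arrays, with 2 keratins in Dicer mutants and 1 between the mutants. Quantile normalisation gave 4 keratins in Yy1 mutants. Between the mutants equal medians gave 1, and array weights gave 4 keratins and 1806 genes. Same-numbered arrays correlated at -0.16 to 0.19 in their deviations, 3 of 12 pairs over 0.1. Arrays of other numbers correlated at -0.26 to 0.21, 3 of 36 pairs over 0.1. The ranges overlap, and so few pairs cannot decide whether the numbers pair specimens weakly. With the replicate block 2, 5 and 2 keratins were called, Krt4 in Dicer mutants being lost (adjusted p = 0.0565). Of the keratins set against markers, 9 differences passed after quantile normalisation and 10 with Epcam and Cdh1 as markers, against 0. In the main setting 8 of 15 reached the smallest possible p, and none can pass unless at least 9 do. Quantile normalisation added Krt8 between the mutants to them. With Epcam and Cdh1 as markers, Krt8 between the mutants and Krt7 and Krt18 in Dicer mutants (-0.32 and -0.24) also passed. Krt7 in Yy1 mutants (-0.23) then did not. Krt8 minus Krt18 in Yy1 mutants differed from controls by -0.23 to -0.15 and from Dicer mutants by -0.37 to -0.25 with 1 array of either genotype left out, and by -0.18 and -0.24 without the 3 arrays, where the smallest possible p is over 0.05. The stricter background limits left 5 and 7 keratins, and others gave up to 31. Signs turned in 10 of the differences, of which Krt19 between the mutants (0.19) and Krt7 relative to the markers between the mutants (-0.18) were the largest and the others were at most 0.10 in size. In Yy1 mutants Krt18 became 0.0030 with the mean of its probe sets, Krt23 0.0597 with array weights and -0.1318 to 0.0207 with 1 array left out, and Krt20 -0.0126 without the 3 arrays. Between the mutants Krt8 became -0.0165 with equal medians and -0.0022 to 0.0323 with 1 array left out, Krt19 -0.0003 without the 3 arrays, and Krt4 -0.0175 to 0.157 with 1 array left out and -0.0149 without the 3 arrays. Relative to the markers, Krt19 in Yy1 mutants lay between -0.093 and 0.0236 when 1 array was left out and at 0.0938 with Epcam and Cdh1. Krt8 in Dicer mutants ran from -0.0672 to 0.0242 with 1 array left out, Krt80 in Dicer mutants was -0.0337 without Dicer mutant 1 and -0.0271 with Epcam and Cdh1, and Krt7 between the mutants was 0.0887 with Epcam and Cdh1. The cause of these shifts was not tested. Keratins under the background limit give differences close to the noise of the array, and probe sets shared between similar keratins cannot be separated.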
